A study of Homo sapiens with 9 samples.

Results

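The transforming growth factor beta (TGF-beta) family was examined as a list of 42 genes for its ligands, receptors, binding proteins, SMAD transducers, feedback inhibitors and ID target genes. The genes were taken by name, through the gene symbols of the array's annotation. The list was chosen with earlier results of these data known. Of the 42 genes, 33 were bright enough to be tested among 12239 tested genes of 18132 with a probe set, 8 lay below the brightness filter and BMPR1A was not analysed here. Expression was measured on 9 one-colour Affymetrix arrays of R-HepG2, which the study describes as HepG2, a human hepatoma line, made resistant to insulin. Cells were kept overnight without serum and then received biomineralized insulin, insulin, or plain DMEM medium for 4 h, with 3 arrays in each of the 3 groups. The insulin concentration was 40 ug/ml in both treated groups, and no group received mineral alone. The cell line tag reads HepG2 for the treated samples and R-HepG2 for the medium samples, while the protocols describe R-HepG2 throughout, so a difference in line could not be told apart from treatment in the comparisons with medium. Nothing states that replicates were separate cultures, so the p-values rest on a spread between arrays that may be technical.

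Ligands of this family are secreted dimers that bring type I and type II receptor kinases together at the cell surface. TGF-beta and activin receptors phosphorylate SMAD2 and SMAD3, whereas bone morphogenetic protein (BMP) receptors phosphorylate SMAD1 and SMAD5, and both kinds enter the nucleus with SMAD4. In liver, TGF-beta is known for restraining hepatocyte growth and driving fibrosis, BMP signalling for setting hepcidin and so iron supply, and activins and follistatins for balancing liver growth.

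Values are log2 expression per probe set as deposited, so a difference of 1 is a doubling, and each gene is given by its brightest probe set. The 9 arrays had closely similar distributions, with medians of 5.46 to 5.50. Markers of the labelled cell type were mostly dim: 5 of 16 measured hepatocyte and hepatoma genes exceeded the filter level of 4.74, ALB averaged 3.40 and AFP averaged 2.93, both below it. The hepatocyte genes ranged from 2.78 for APOB to 5.87 for APOA1. Lung epithelium markers exceeded the filter level for 6 of 10 genes, and ranged from 2.65 for SFTPA2 to 6.46 for NAPSA. Fibroblast markers exceeded it for 6 of 9, and ranged from 3.58 for PDGFRA to 8.10 for DCN. So did 4 of 4 endothelium, 2 of 3 squamous or basal epithelium and 2 of 5 leukocyte markers. The mean of the hepatocyte list was 4.04 to 4.14 on biomineralized insulin arrays, 4.06 to 4.11 on insulin arrays and 4.01 to 4.15 on medium arrays. That of the lung list was 4.83 to 4.86, 4.71 to 4.73 and 4.67 to 4.78 on the same groups, and that of the fibroblast list 5.51 to 5.57, 5.51 to 5.55 and 5.50 to 5.60. The part of these markers in the results was not tested. The 24 poly-A control features, made from RNA added during labelling, averaged 7.62 ± 0.16 with biomineralized insulin, 7.23 ± 0.02 with insulin and 7.22 ± 0.07 with medium (SD, n = 3 each). Centring each array on these features moves the median of all genes by -0.40 log2 in biomineralized insulin against medium, so every change below is relative to the bulk of genes. With that centring the median difference of all genes was -0.38 against medium and -0.37 against insulin. The ratio of control RNA to sample RNA at labelling was not tested. Whether less RNA per cell or fewer cells lie behind a lower value cannot be told apart in bulk samples.

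More family genes were lower than higher with biomineralized insulin, and the largest difference among the 33 was the fall of the ligand BMP2. Against medium, 23 of the 33 tested genes passed an adjusted p of 0.05 in limma, 7 higher and 16 lower, or 69.7% beside 50.9% of all tested genes. Of all genes, 25.7% were called higher and 25.2% lower. After centring on the poly-A controls, 28 family genes were called, 1 higher and 27 lower, beside 273 higher and 9120 lower among all genes. The median difference of the 33 genes was -0.13, beside 0.02 over all genes, and the median absolute difference was 0.18, beside 0.16. A difference of at least 1.5-fold was reached by 3 of the called genes, BMP2, ACVR2B and FSTL3, with 7.11% of all genes called at that size. The 3 arrays of one group lay wholly above or below those of the other for 24 of the 33 genes, with 56.6% of all genes apart in this way.

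The comparison at equal dose gave a similar count. Between biomineralized insulin and insulin, 24 of the 33 genes were called, 7 higher and 17 lower, or 72.7% beside 44.4% of all genes. With poly-A centring 26 were called, 0 higher and 26 lower, beside 165 higher and 9445 lower among all genes. The median difference was -0.18, beside 0.02 over all genes, and 1 gene, BMP2, passed 1.5-fold, with 5.20% of all genes called at that size. The arrays of these groups did not overlap for 24 of the 33 genes, beside 52.7% of all genes, and 21.1% of all genes were called higher and 23.3% lower. Insulin against medium gave 2 called genes of 33, or 6.06% beside 2.45% of all genes, with ID1 higher and BMP2 lower. Of all genes, 1.25% were called higher and 1.20% lower there, and no family gene was called at 1.5-fold or more, beside 0.0163% of all genes. At an unadjusted p of 0.05, 9 of the 33 genes passed in that comparison, beside 15.8% of all genes, and the arrays of 10 genes did not overlap, beside 18.3% of all genes. As a measure of RNA quality, the signal at the 3′ end of the actin control minus that at its 5′ end was taken. It was 2.95 to 3.14 on biomineralized insulin arrays, 3.11 to 3.27 on insulin arrays and 2.96 to 3.08 on medium arrays. The insulin and medium arrays did not overlap, while the biomineralized insulin arrays overlapped both. GAPDH, by the same measure, gave 0.18 to 0.21 with biomineralized insulin, 0.16 to 0.17 with insulin and 0.13 to 0.20 with medium. For GAPDH the biomineralized insulin and insulin arrays did not overlap. The part of RNA quality in the results was not tested. The 3 comparisons share arrays in pairs, so their values are given side by side and are not independent of one another.

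**Figure D1:**
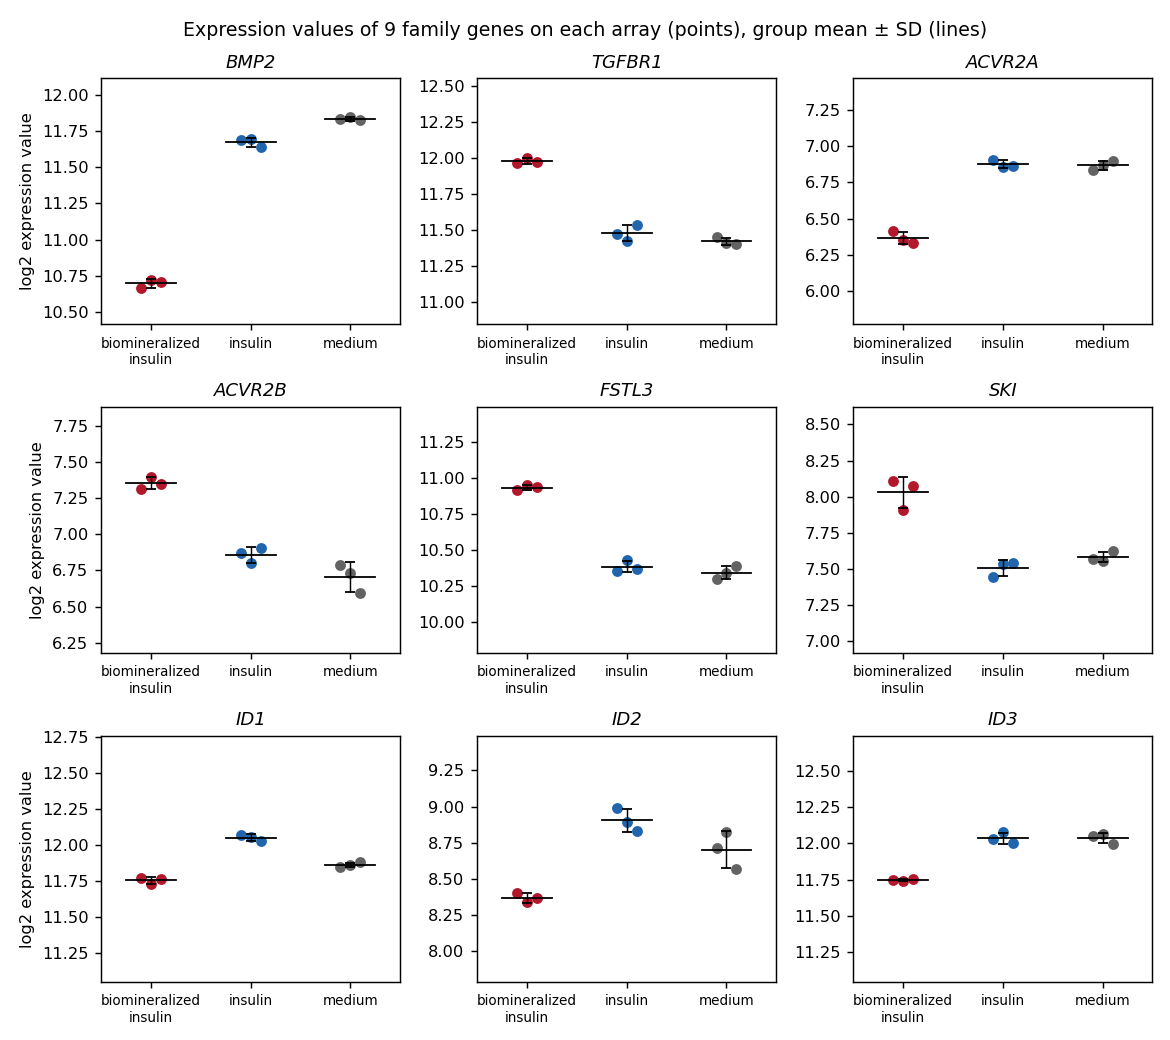
Log2 expression (vertical axis) of 9 family genes by group, with 1 point per array, a long line for the group mean and bars for the SD. The biomineralized insulin arrays lie below all others for BMP2, ACVR2A, ID1, ID2 and ID3 and above all others for TGFBR1, ACVR2B, FSTL3 and SKI. After centring on the poly-A controls the differences of TGFBR1, ACVR2B, FSTL3 and SKI against medium stayed above 0, with only ACVR2B called.

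**Figure D2:**
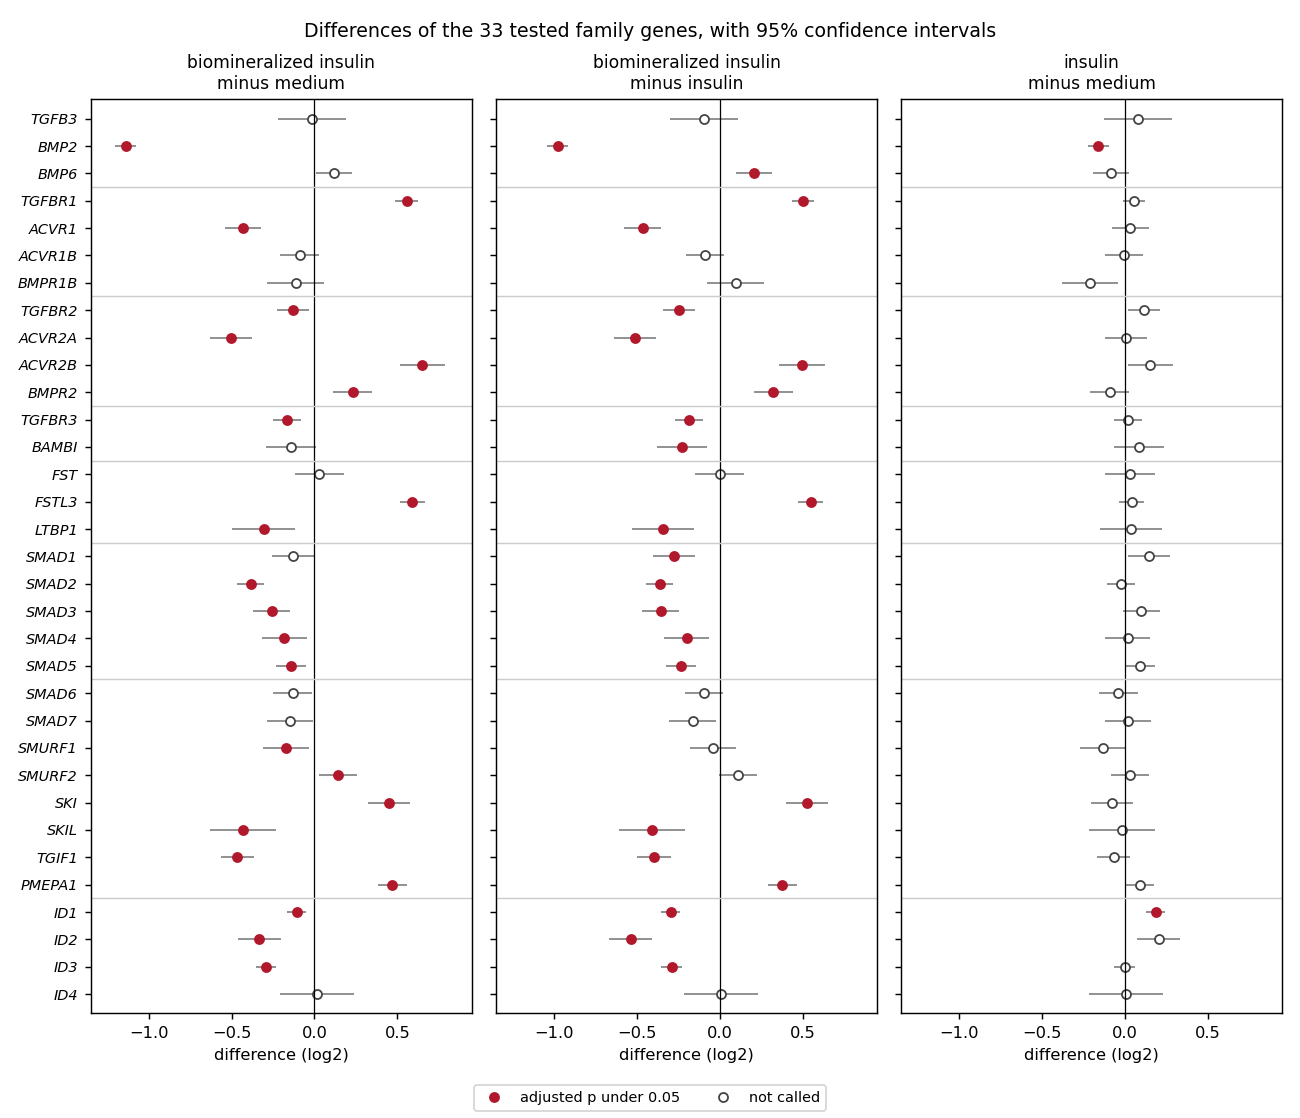
Log2 difference (horizontal axis) of each of the 33 tested genes in the 3 comparisons, with bars for 95% confidence intervals from limma and grey lines between roles. Filled points passed an adjusted p of 0.05, which holds for 23, 24 and 2 genes from left to right; with poly-A centring the differences of BMPR2, SMURF2, BMP6, FST and ID4 against medium turn negative, and those of BMPR2, SMURF2, BMP6, BMPR1B, ID4 and PMEPA1 do so against insulin, and those of ACVR2A, SMAD4, SMAD7 and ID4 do so in insulin against medium.

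Among the ligands, BMP2, which acts through BMP receptors on SMAD1 and SMAD5, had the largest fall among the 33 tested genes. It had log2 values of 10.66, 10.72 and 10.71 with biomineralized insulin, 11.69, 11.70 and 11.64 with insulin and 11.83, 11.85 and 11.83 with medium. The 3 groups did not overlap, and the biomineralized insulin arrays lay far below both others. Against medium it fell by 1.14 ± 0.03 (SE), or 2.20-fold (adjusted p = 3.0e-14), and its other probe set gave -1.22. Against insulin it fell by 0.98 (adjusted p = 2.6e-13). With insulin it fell by 0.16 ± 0.03 against medium (adjusted p = 0.011). That call was lost without medium replicate 2, where the difference was -0.15, without insulin replicate 3, where it was -0.14, with poly-A centring, where it was -0.18, and in a model without the intensity trend.

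BMP6, the ligand that drives hepcidin in liver, averaged 9.03 with biomineralized insulin, 8.83 with insulin and 8.91 with medium. It rose against insulin by 0.21 (adjusted p = 0.0034), a difference that turned to -0.18 with poly-A centring. Against medium its difference of 0.12 was not called (adjusted p = 0.060), became a call without medium replicate 1 (0.15) and turned to -0.28 with poly-A centring. Its other probe set gave -0.01 against medium and 0.25 against insulin. TGFB3 lay near the filter, at 4.87 with biomineralized insulin, 4.97 with insulin and 4.89 with medium, and was called in no comparison as deposited. With poly-A centring it was called lower, at -0.42 against medium and -0.48 against insulin.

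The remaining 6 ligand genes were below the filter: TGFB1, TGFB2, BMP4, BMP7 and the activin subunit genes INHBA and INHBB. TGFB1 averaged 4.41 with biomineralized insulin, 4.11 with insulin and 4.28 with medium, on a single probe set. TGFB2, BMP4, BMP7 and INHBA averaged 4.32, 4.19, 4.59 and 4.35 with biomineralized insulin, 4.20, 4.12, 4.42 and 4.21 with insulin and 4.28, 4.11, 4.42 and 4.16 with medium. INHBB averaged 4.29, 3.97 and 3.93 in the same groups. When no filter was used, INHBB was higher with biomineralized insulin by 0.36 against medium (adjusted p = 0.021) and by 0.32 against insulin (adjusted p = 0.047), and TGFB1 by 0.29 against insulin (adjusted p = 0.013). Those are differences at the dim end of the arrays, where the deposited values carry no detection call.

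Type I receptors moved in both directions. TGFBR1, the kinase that phosphorylates SMAD2 and SMAD3 on TGF-beta binding, had values of 11.961, 11.997 and 11.973 with biomineralized insulin, 11.47, 11.42 and 11.53 with insulin and 11.45, 11.41 and 11.40 with medium. Every biomineralized insulin array exceeded every other array, while insulin and medium overlapped. The gene rose by 0.56 ± 0.03 against medium (adjusted p = 4.8e-10) and by 0.50 against insulin (adjusted p = 2.4e-09), and its 3 probe sets gave 0.55 to 0.93 against medium. With poly-A centring the difference against medium was 0.15 and that against insulin 0.12, neither called.

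ACVR1, a BMP type I receptor, averaged 7.94 with biomineralized insulin, 8.40 with insulin and 8.37 with medium. It fell by 0.43 ± 0.05 against medium (adjusted p = 3.0e-06) and by 0.46 against insulin (adjusted p = 1.8e-06). One of its 4 probe sets, below the filter, gave 0.12 against medium. Both calls were lost when probe sets with the suffix _s_at or _x_at were left out, with differences of -0.12 and -0.14. ACVR1B, an activin type I receptor, and BMPR1B, a BMP type I receptor, were called in no comparison as deposited. They averaged 8.12 and 5.93 with biomineralized insulin, 8.20 and 5.84 with insulin and 8.21 and 6.05 with medium. With poly-A centring both were called lower, at -0.49 and -0.52 against medium and at -0.47 and -0.29 against insulin.

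All 4 tested type II receptors passed the test against medium, beside 50.9% of all genes. ACVR2A and TGFBR2 were lower and ACVR2B and BMPR2 higher, beside 25.2% and 25.7% of all genes. With poly-A centring 1 was called higher and 2 lower, beside 273 higher and 9120 lower among all genes. ACVR2A and ACVR2B are the paired activin type II receptors, which bind activins and several BMPs. ACVR2A had values of 6.42, 6.35 and 6.33 with biomineralized insulin, 6.91, 6.85 and 6.87 with insulin and 6.84, 6.87 and 6.90 with medium. Every biomineralized insulin array lay below every other array. It fell by 0.50 ± 0.06 against medium (adjusted p = 2.1e-06) and by 0.51 against insulin (adjusted p = 2.3e-06).

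ACVR2B went the other way on the same arrays. Its values were 7.32, 7.40 and 7.35 with biomineralized insulin, 6.87, 6.80 and 6.91 with insulin and 6.79, 6.73 and 6.59 with medium. All biomineralized insulin arrays exceeded all others, and every insulin array exceeded every medium array, although the difference of 0.15 between insulin and medium was not called (adjusted p = 0.25). It rose by 0.65 ± 0.06, or 1.57-fold, against medium (adjusted p = 3.1e-07), and its other probe set gave 0.30. Against insulin it rose by 0.50 (adjusted p = 8.6e-06). With poly-A centring it was the single family gene still called higher against medium, at 0.25, and it was not called against insulin, at 0.11.

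TGFBR2, which binds TGF-beta first and recruits TGFBR1, averaged 9.33 with biomineralized insulin, 9.57 with insulin and 9.46 with medium. It fell by 0.24 against insulin (adjusted p = 0.00028) and by 0.13 ± 0.05 against medium (adjusted p = 0.023). The call against medium was lost without medium replicate 1 or 2 or biomineralized insulin replicate 1 or 3, with differences of -0.10 to -0.13, and after quantile normalization, at -0.10. Its 2 probe sets disagreed in sign, and with their mean taken the difference against medium was 0.01 and that against insulin -0.05, neither called. BMPR2, the BMP type II receptor, averaged 7.69 with biomineralized insulin, 7.37 with insulin and 7.46 with medium. It rose by 0.23 ± 0.06 against medium (adjusted p = 0.0024) and by 0.32 against insulin (adjusted p = 0.00016), differences that turned to -0.17 and -0.06 with poly-A centring. One of its 3 probe sets gave -0.23 against medium, and their mean gave 0.11, not called.

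TGFBR3 and BAMBI stand beside the signalling receptors. TGFBR3, or betaglycan, presents TGF-beta to TGFBR2, and averaged 9.63 with biomineralized insulin, 9.82 with insulin and 9.80 with medium. It fell by 0.17 ± 0.04 against medium (adjusted p = 0.0023) and by 0.18 against insulin (adjusted p = 0.0011). One of its 3 probe sets went the other way, at 0.15, and the mean of the probe sets gave -0.02 in both comparisons, not called. BAMBI, a decoy receptor without a kinase, averaged 6.33 with biomineralized insulin, 6.56 with insulin and 6.47 with medium. It fell by 0.23 against insulin (adjusted p = 0.015), a call lost without insulin replicate 2 (-0.18) or biomineralized insulin replicate 2 (-0.20). Its difference of -0.14 against medium was not called as deposited, and was called at -0.54 with poly-A centring.

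Among the extracellular binders, FSTL3 rose. FSTL3 is a follistatin-like protein that binds and neutralises activins and related ligands, and its values were 10.91, 10.95 and 10.94 with biomineralized insulin, 10.35, 10.43 and 10.37 with insulin and 10.30, 10.34 and 10.39 with medium. The biomineralized insulin arrays were tightly grouped above the other 6, which overlapped. It rose by 0.59 ± 0.04, or 1.5-fold, against medium (adjusted p = 7.8e-10) and by 0.55 against insulin (adjusted p = 2.6e-09). Its 3 probe sets gave 0.59 to 0.83 against medium, and with poly-A centring the difference was 0.19 against medium and 0.16 against insulin, neither called. FST, or follistatin itself, averaged 7.09 with biomineralized insulin, 7.09 with insulin and 7.06 with medium and was called in no comparison as deposited. With poly-A centring FST was called lower, at -0.37 against medium and -0.39 against insulin.

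LTBP1, which holds latent TGF-beta in the matrix, averaged 5.40 with biomineralized insulin, 5.74 with insulin and 5.70 with medium. It fell by 0.30 ± 0.09 against medium (adjusted p = 0.0092) and by 0.34 against insulin (adjusted p = 0.0049). The call against medium was lost without biomineralized insulin replicate 3, at -0.22. Both calls were lost when _s_at and _x_at probe sets were left out, at -0.14 and -0.21. LTBP2, a relative of LTBP1, and GREM1, or gremlin, a BMP antagonist, were below the filter in all groups, at 3.69 and 3.94 with biomineralized insulin, 3.48 and 3.81 with insulin and 3.41 and 3.77 with medium.

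Most transducing SMADs fell. Against medium 4 of 5 were called lower, and against insulin all 5 were, with none higher in either comparison. Of all genes, 25.2% were called lower against medium and 23.3% against insulin. SMAD2, which relays TGF-beta and activin, averaged 10.35 with biomineralized insulin, 10.71 with insulin and 10.73 with medium. It fell by 0.39 ± 0.04 against medium (adjusted p = 4.4e-07) and by 0.36 against insulin (adjusted p = 1.2e-06). All 7 of its probe sets were lower against medium, between -0.31 and -0.60.

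SMAD3, the other TGF-beta and activin transducer, averaged 8.68 with biomineralized insulin, 9.04 with insulin and 8.94 with medium. It fell by 0.26 ± 0.05 against medium (adjusted p = 0.00057) and by 0.36 against insulin (adjusted p = 3.2e-05). However, the mean of its probe sets above the filter gave -0.11 and -0.09, not called. Its second brightest probe set gave -0.02 in both comparisons. SMAD4, the shared partner, averaged 9.52 with biomineralized insulin, 9.72 with insulin and 9.70 with medium. Its fall of 0.18 ± 0.06 against medium (adjusted p = 0.026) was lost without medium replicate 1 (-0.11), without biomineralized insulin replicate 1 (-0.12), without the intensity trend and with the mean of its probe sets (-0.10). Its fall of 0.20 against insulin (adjusted p = 0.019) was lost without insulin replicate 3 (-0.15), without biomineralized insulin replicate 1 (-0.14), without the intensity trend and with the mean of probe sets (-0.06), and 2 of its 7 probe sets went up in each comparison.

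SMAD1 and SMAD5 relay BMP signals. SMAD5 averaged 10.12 with biomineralized insulin, 10.36 with insulin and 10.26 with medium, and fell by 0.24 against insulin (adjusted p = 0.00024) and by 0.14 ± 0.04 against medium (adjusted p = 0.010). The call against medium was lost without medium replicate 3, at -0.11. SMAD1 averaged 8.97 with biomineralized insulin, 9.24 with insulin and 9.10 with medium. It fell by 0.27 against insulin (adjusted p = 0.0013), and its difference of -0.13 against medium was not called (adjusted p = 0.081). That difference was called under 5 of 20 alternatives. They were poly-A centring (-0.53), the mean of probe sets (-0.15), array weights (-0.15), only the compared arrays, and insulin replicate 2 left out. Without insulin replicate 2, SMAD1 was also called higher in insulin against medium, at 0.22. Its other probe set gave -0.04 there with all arrays.

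Of 8 genes that restrain the pathway, 3 were called higher and 3 lower against medium, beside 25.7% and 25.2% of all genes. With poly-A centring 0 were called higher and 6 lower, beside 273 higher and 9120 lower among all genes. SKI, a nuclear repressor that binds SMAD complexes, had values of 8.11, 7.91 and 8.07 with biomineralized insulin, 7.44, 7.53 and 7.54 with insulin and 7.57, 7.55 and 7.62 with medium. Every biomineralized insulin array was above every other array. It rose by 0.45 ± 0.06 against medium (adjusted p = 8.2e-06) and by 0.53 against insulin (adjusted p = 2.0e-06). The smallest of its 5 probe set differences against medium was 0.02, on a dim probe set, and with poly-A centring the gene's difference was 0.05 against medium and 0.14 against insulin, neither called.

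SKIL, the SKI relative also called SnoN, moved the opposite way. It averaged 7.21 with biomineralized insulin, 7.62 with insulin and 7.64 with medium, and fell by 0.43 ± 0.09 against medium (adjusted p = 0.0011) and by 0.41 against insulin (adjusted p = 0.0018). TGIF1, a homeobox corepressor of SMAD2 and SMAD3 shown by array after its values were seen, had values of 8.48, 8.51 and 8.56 with biomineralized insulin, 8.83, 8.96 and 8.95 with insulin and 9.03, 8.97 and 8.94 with medium. The biomineralized insulin arrays lay below all others. TGIF1 fell by 0.46 ± 0.05 against medium (adjusted p = 4.9e-07) and by 0.40 against insulin (adjusted p = 3.7e-06).

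PMEPA1, a TGF-beta-induced membrane protein that keeps SMAD2 and SMAD3 from the receptor, is shown by array here after its values were seen. Its values were 9.68, 9.64 and 9.71 with biomineralized insulin, 9.28, 9.31 and 9.30 with insulin and 9.27, 9.19 and 9.16 with medium. The biomineralized insulin arrays lay above all others, and the insulin arrays lay just above the medium arrays without a call (0.09, adjusted p = 0.30). It rose by 0.47 ± 0.04 against medium (adjusted p = 8.1e-08), with 1.18 on its strongest probe set and 0.06 with poly-A centring, not called. Against insulin it rose by 0.38 (adjusted p = 1.2e-06), a difference that turned to -0.01 with poly-A centring.

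The inhibitory SMADs, SMAD6 and SMAD7, which block receptors in negative feedback, were not called in any comparison as deposited. With poly-A centring both were called lower, at -0.54 and -0.55 against medium and at -0.48 and -0.55 against insulin. They averaged 9.58 and 7.61 with biomineralized insulin, 9.67 and 7.77 with insulin and 9.71 and 7.75 with medium. Their differences against medium were -0.13 (adjusted p = 0.054) and -0.15 (adjusted p = 0.073). Both stood near the threshold: without medium replicate 3 they were called lower against medium at -0.18 and -0.19, without insulin replicate 2 SMAD6 was called lower against insulin at -0.15, and without biomineralized insulin replicate 3 SMAD7 was called lower against medium at -0.20 and against insulin at -0.21. SMAD7 was also called lower against insulin without insulin replicate 2, at -0.21, and without medium replicate 3, at -0.16, and SMAD6 against medium without insulin replicate 2, at -0.13.

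SMURF1 and SMURF2 are ubiquitin ligases that mark SMADs and receptors for degradation. SMURF1 averaged 6.13 and SMURF2 9.53 with biomineralized insulin, 6.17 and 9.42 with insulin and 6.30 and 9.39 with medium. SMURF1 fell by 0.17 ± 0.07 against medium (adjusted p = 0.040) and SMURF2 rose by 0.14 ± 0.05 (adjusted p = 0.041), which turned to -0.26 with poly-A centring. The SMURF1 call was lost without medium replicate 1 or 3, insulin replicate 1 or biomineralized insulin replicate 1 or 2, at -0.15 to -0.17, and with array weights, with no brightness filter, with only the compared arrays and with the replicate block. The SMURF2 call was lost without medium replicate 1 or 3, insulin replicate 1 or biomineralized insulin replicate 2 or 3, at 0.10 to 0.14, and with median centring, the mean of probe sets, array weights, no filter and no intensity trend. Neither gene was called against insulin as deposited, and SMURF2 arrays overlapped between biomineralized insulin and medium. With poly-A centring SMURF1 and SMURF2 were called lower against insulin, at -0.42 and -0.28.

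The ID genes encode inhibitors of DNA binding, helix-loop-helix proteins without a DNA-binding region that are textbook targets of BMP signalling. Of 4 tested ID genes, ID1, ID2 and ID3 fell with biomineralized insulin against both insulin and medium, beside 23.3% and 25.2% of all genes called lower. ID2 had values of 8.40, 8.34 and 8.37 with biomineralized insulin, 8.99, 8.90 and 8.83 with insulin and 8.71, 8.83 and 8.57 with medium. The biomineralized insulin arrays were lowest, and the lowest insulin array and the highest medium array were equal to 2 decimals. ID2 fell by 0.54 against insulin (adjusted p = 2.0e-06) and by 0.33 ± 0.06 against medium (adjusted p = 0.00022), and its difference of 0.20 between insulin and medium was not called (adjusted p = 0.091).

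ID1 and ID3 are shown by array after their values were seen. ID1 had values of 11.77, 11.73 and 11.77 with biomineralized insulin, 12.07, 12.05 and 12.03 with insulin and 11.85, 11.86 and 11.88 with medium. No group overlapped another: insulin was highest, medium next and biomineralized insulin lowest. ID1 rose with insulin by 0.19 ± 0.03 against medium (adjusted p = 0.0026), with 0.13 to 0.19 on its 3 probe sets. ID1 lost that call without _s_at and _x_at probe sets, at 0.13, with poly-A centring, at 0.17, and without the intensity trend. With biomineralized insulin it fell by 0.29 against insulin (adjusted p = 1.8e-07) and by 0.11 ± 0.03 against medium (adjusted p = 0.0031). ID3 had values of 11.74, 11.74 and 11.75 with biomineralized insulin, 12.031, 12.077 and 12.003 with insulin and 12.049, 12.068 and 11.998 with medium. The biomineralized insulin arrays were below all others and the insulin and medium arrays overlapped. ID3 fell by 0.29 ± 0.03 against medium (adjusted p = 3.5e-07) and by 0.29 against insulin (adjusted p = 5.0e-07). ID4, at 4.80 with biomineralized insulin, 4.80 with insulin and 4.79 with medium, was called in no comparison as deposited. With poly-A centring ID4 was called lower, at -0.39 against medium and -0.38 against insulin.

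Promoters are shown for the 3 ID genes that fell and for FSTL3, which rose, since these are target and regulator genes on which the data bear. Each sequence is the 250 bases before the gene's start from RefSeq on build GRCh38.p14, read 5′ to 3′ on the gene's strand. Capitals mark CAGAC, the core of the SMAD-binding element, GGCGCC, a GC-rich SMAD site, and TATAAA, the TATA box core, each searched on both strands. The regions are chr20:31605039-31605288 on the plus strand for ID1, chr2:8681806-8682055 on the plus strand for ID2, chr1:23559502-23559751 on the minus strand for ID3 and chr19:676142-676391 on the plus strand for FSTL3.
ID1: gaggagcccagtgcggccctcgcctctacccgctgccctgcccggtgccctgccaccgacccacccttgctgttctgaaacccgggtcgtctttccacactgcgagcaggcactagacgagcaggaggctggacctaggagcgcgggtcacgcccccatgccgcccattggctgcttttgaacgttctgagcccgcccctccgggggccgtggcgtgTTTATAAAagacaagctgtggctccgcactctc
ID2: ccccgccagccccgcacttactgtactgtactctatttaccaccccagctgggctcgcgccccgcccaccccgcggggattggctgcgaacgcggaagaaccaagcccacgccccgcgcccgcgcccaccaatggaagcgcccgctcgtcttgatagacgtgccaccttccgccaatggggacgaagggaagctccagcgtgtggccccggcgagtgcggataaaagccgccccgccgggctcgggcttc
ID3: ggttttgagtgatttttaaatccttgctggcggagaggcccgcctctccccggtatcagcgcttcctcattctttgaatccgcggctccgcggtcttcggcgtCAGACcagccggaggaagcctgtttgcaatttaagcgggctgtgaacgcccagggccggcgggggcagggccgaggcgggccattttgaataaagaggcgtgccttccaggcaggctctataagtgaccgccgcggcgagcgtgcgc
FSTL3: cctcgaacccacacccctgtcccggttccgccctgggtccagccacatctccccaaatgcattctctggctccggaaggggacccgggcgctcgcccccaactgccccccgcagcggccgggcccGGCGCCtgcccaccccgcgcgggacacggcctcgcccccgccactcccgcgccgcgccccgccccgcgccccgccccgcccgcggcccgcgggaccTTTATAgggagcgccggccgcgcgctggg
ID1 held TATAAA at -33 and -31 from the start, overlapping matches on opposite strands. ID3 held CAGAC at -147, and FSTL3 held GGCGCC at -125 and TATAAA on the minus strand at -29. ID2 held none of these letters in the window, which says nothing of any factor. Among 27305 promoters of the same length, 37.8% held CAGAC, 16.1% held GGCGCC and 11.1% held TATAAA, so a match is a description and not a site. Promoter entries existed for 39 of the 42 family genes.

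Other probe sets of the called genes mostly moved the same way. Against medium, 22 of the 23 called genes had at least 1 other bright probe set, 47 in all, and 42 of these had the sign of the one tested. Against insulin the count was 42 of 48 for 23 of 24 genes, and in insulin against medium 3 of 3 for 2 genes. The plot of all probe sets shows where a gene's probe sets spread widely, as for SMAD4 and PMEPA1.

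**Figure D3:**
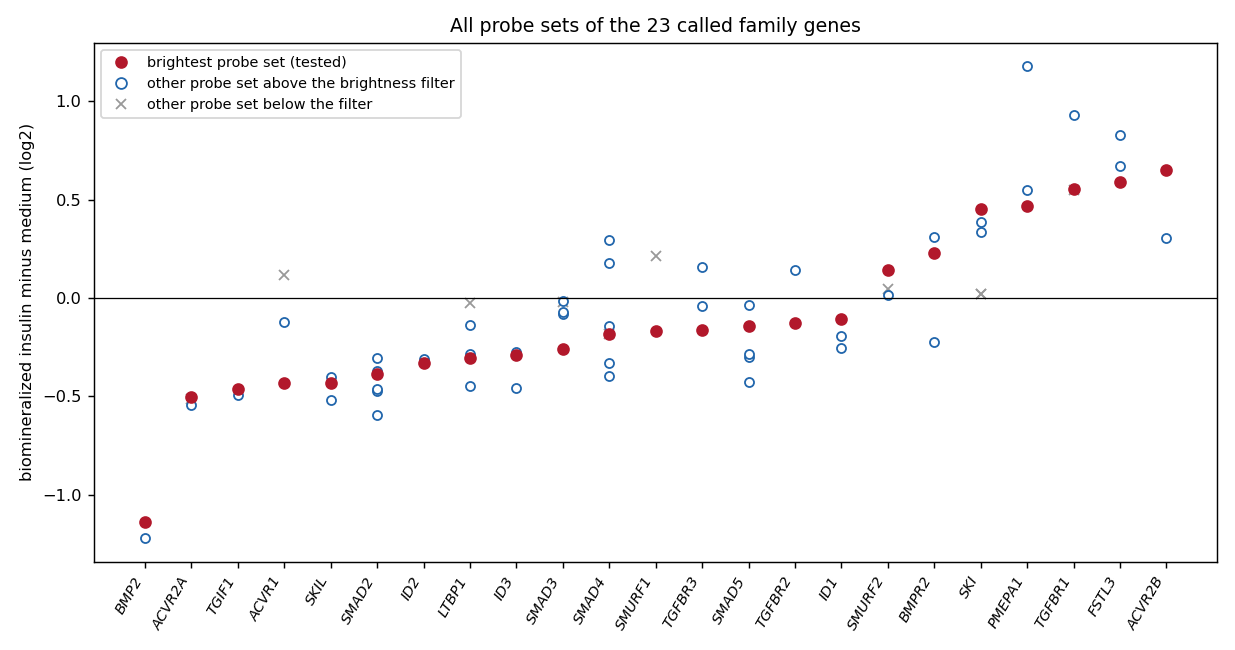
Log2 difference of biomineralized insulin minus medium (vertical axis) for every probe set of the 23 called family genes, with the tested one filled, other bright ones open and dim ones as crosses. SMAD2 has all 7 probe sets below 0 and FSTL3 all 3 above 0, while SMAD4 has 2 of 7 on the other side; with poly-A centring the differences of BMPR2 and SMURF2 turn negative.

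**Figure D4:**
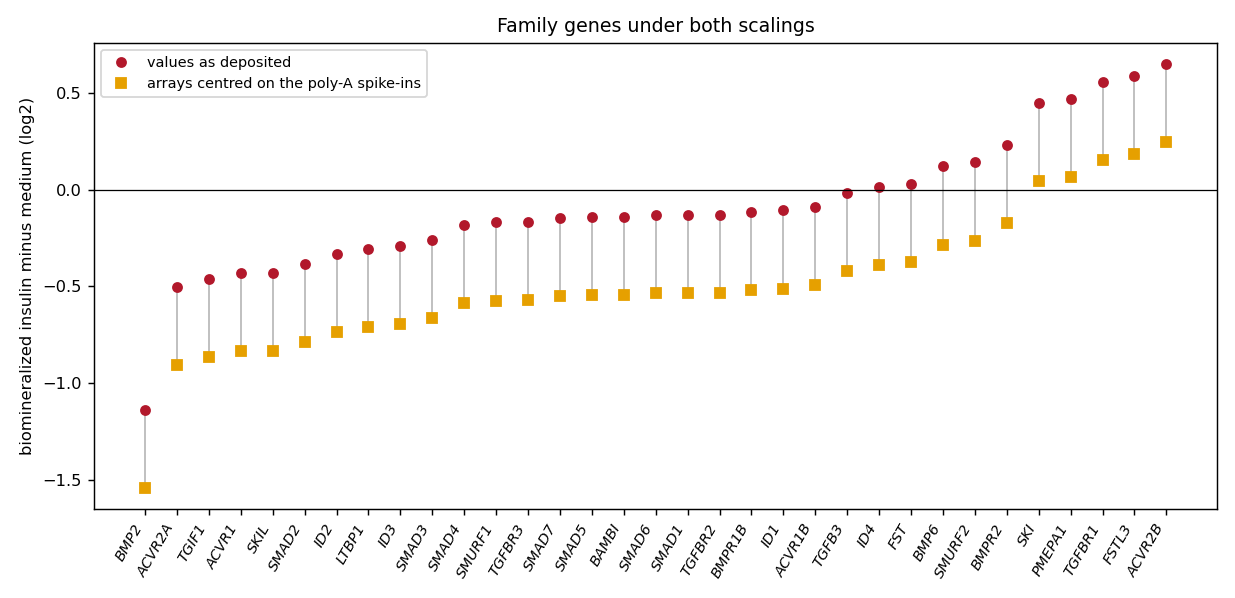
Log2 difference of biomineralized insulin minus medium (vertical axis) for the family genes as deposited and after centring each array on the 24 poly-A control features. The whole set moves down by 0.40, BMP2 stands at -1.14 and -1.54, and BMPR2, SMURF2, BMP6, FST and ID4 change sign.

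Beyond the 42 genes, 108 related pathway genes were listed, of which 82 were tested, 19 lay below the filter and 7 were not analysed. Against medium, 43 of the 82 were called, 22 higher and 21 lower, or 52.4% beside 50.9% of all genes. Against insulin 42 were called, 22 higher and 20 lower, or 51.2% beside 44.4% of all genes. With poly-A centring 57 were called in each of these comparisons, 3 higher and 54 lower. Among all 12239 tested genes that centring called 273 higher and 9120 lower against medium, and 165 higher and 9445 lower against insulin. For the counts by role that follow, 25.7% of all genes were called higher and 25.2% lower against medium. Of 20 target genes, 8 were higher and 8 lower against medium, and of 25 signal transducers and modifiers 5 were higher and 9 lower. Of 18 further ligands and inhibitors 5 were higher and 2 lower, of 12 release and activation genes 4 were higher and 1 lower, and of 7 receptors and co-receptors 1 was lower.

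The called target genes with the largest differences went both ways. NEDD9, a docking protein of cell adhesion, fell by 1.15 ± 0.05 (adjusted p = 1.6e-11), HES1, a transcriptional repressor, by 0.99 ± 0.09 (adjusted p = 7.4e-08), CCN2, the connective tissue growth factor, by 0.81 ± 0.07 (adjusted p = 7.4e-08) and SNAI2, a repressor of epithelial genes, by 0.70 ± 0.04 (adjusted p = 1.9e-10) against medium. FN1, the matrix protein fibronectin, rose by 0.92 ± 0.10 (adjusted p = 9.2e-07) and TGFBI, a matrix protein named for its induction by TGF-beta, by 0.65 ± 0.04 (adjusted p = 2.1e-09), and with poly-A centring both were still called, at 0.51 and 0.25. All 4 probe sets of TGFBI gave at least 0.65, while the smallest of 8 for FN1 was 0.03 and the smallest of 5 for HES1 was -0.03. Against insulin the differences were -0.85 for NEDD9, -0.80 for HES1, -0.68 for CCN2, -0.77 for SNAI2, 0.65 for FN1 and 0.69 for TGFBI. In insulin against medium NEDD9 fell by 0.30 (adjusted p = 0.0053), a call lost with poly-A centring, at -0.32.

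Among the other related genes with the largest differences against medium, INHBE, an activin subunit gene, averaged 4.32 with biomineralized insulin and 9.60 with medium. It was called lower (adjusted p = 5.1e-17), with no size given because the biomineralized insulin mean lay below the filter level. Its difference in insulin against medium was -0.24, not called. GDF15, a stress-induced hormone of the family, averaged 7.29 with biomineralized insulin and 9.74 with medium, a difference of -2.44 ± 0.09 (adjusted p = 2.6e-12). FSTL4, a follistatin-like gene, averaged 5.67 with biomineralized insulin and 4.70 with medium, the second below the filter level, and was called higher (adjusted p = 8.1e-07), again with no size given. TWSG1, a BMP-binding protein, rose by 0.57 ± 0.08, ITGB8, an integrin subunit that releases latent TGF-beta, by 0.50 ± 0.10 with 1 of 4 probe sets opposite, and CITED2, a transcriptional coregulator, by 0.50 ± 0.09. With poly-A centring those 3 differences were 0.17, 0.10 and 0.09, none called. GDF15 also fell by 0.60 in insulin against medium (adjusted p = 0.0034), and its difference was -1.85 in biomineralized insulin against insulin.

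**Figure D5:**
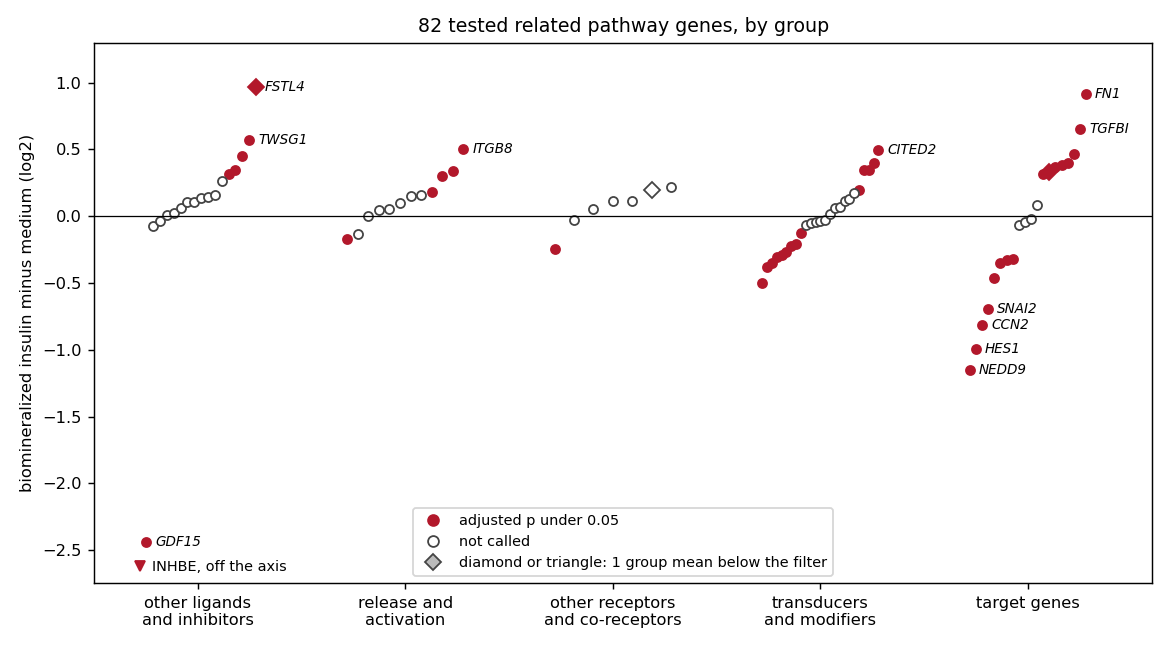
Log2 difference of biomineralized insulin minus medium (vertical axis) for the 82 tested related genes, 1 point each, in 5 groups by role. Filled points passed an adjusted p of 0.05, 43 in all, beside 50.9% of all genes. Diamonds and the triangle of INHBE, off the axis, mark the 4 genes with the mean of 1 group below the filter. For these 4 the size of a difference is not measured. With poly-A centring 57 were called, 3 higher and 54 lower, beside 273 higher and 9120 lower among all genes.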

How the data were processed

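The deposited values are log2 expression per probe set, made by the authors, with a range of 2.02 to 14.3. How they were summarised and normalized was not given in the sources used here. Per the labels' protocols, total RNA was labelled with a 3' in vitro transcription kit. Of 49395 probe sets, 44988 had 1 gene symbol, 1832 several, 2473 none listed and 102 were control features, and 44961 symbols were updated through Entrez identifiers with the RefSeq table of GRCh38.p14. The dimmest 40 percent of probe sets (below 4.74) were dropped, and the brightest probe set stood for each gene. All 9 arrays entered 1 limma 3.58.1 model in R 4.3.3 with 6 residual degrees of freedom and an intensity trend, tested on simulated data, and p-values were adjusted by Benjamini and Hochberg over 12239 genes. Genes differing by at least 0.5 with adjusted p under 0.05 in any comparison were given by array, with 4 more chosen after their values were seen, and the 12 related genes with the largest called differences against medium were named. Alternatives varied the arrays, scaling, filter, probe sets, trend, weights and threshold. Where the mean of probe sets was taken, it was over those above the filter. Members and lists were chosen with earlier results of these data known. Same-numbered arrays had deviation correlations of -0.23 to 0.17 and 1 of 9 pairs exceeded 0.1, so replicate numbers were not taken to pair arrays. The number of arrays limits the precision. Figures were drawn with Python 3.11.15 and matplotlib 3.10.9.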

Additional observations from a re-analysis of the deposited data

How the results depend on the processing

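Of 1950 values recomputed for single family genes, 1778 kept their direction and their side of the threshold, 61 lost the call and 40 gained it in the same direction, and 12 changed sign with a call under at least 1 setting. Another 59 changed sign with a call under neither setting, all from reported differences of at most 0.10 in size. The 12 were with poly-A centring against medium for BMP6 (-0.28), BMPR2 (-0.17), FST (-0.37), ID4 (-0.39) and SMURF2 (-0.26), with poly-A centring against insulin for BMP6 (-0.18), BMPR1B (-0.29), BMPR2 (-0.064), ID4 (-0.38), PMEPA1 (-0.0075) and SMURF2 (-0.28), and with the mean of probe sets for TGFBR2 against medium (0.0064). Poly-A centring called 9393 of all genes in biomineralized insulin against medium and 9610 against insulin, and 7 in insulin against medium. Calls over all genes in insulin against medium, 300 as reported, were 197 with median centring and 152 from a model of the 6 compared arrays. They were 199 without _s_at and _x_at probe sets, 37 without the intensity trend and 605 with array weights. At an adjusted p of 0.01 they were 66, and with 1 array left out 57 to 425. Family genes called in that comparison were 0 with poly-A centring, 0 without the trend and 1 without _s_at and _x_at probe sets. They were 1 at an adjusted p of 0.01 and 1 to 3 with 1 array left out. Related genes called there were 1 with poly-A centring, 1 without _s_at and _x_at probe sets and 1 without the trend. Family calls with 1 array left out were 20 to 25 in biomineralized insulin against medium and 23 to 25 against insulin. With the replicate number as a block, 23, 24 and 2 family genes and 6081, 5302 and 226 of all genes were called in biomineralized insulin against medium, against insulin, and insulin against medium; BMP6 gained its call against medium and SMURF1 lost it. The cause of these changes was not tested.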
